A study of Mus musculus with 96 samples.

Results

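The carboxylesterase family is described here through 10 mouse genes, Ces1d, Ces1e, Ces1f, Ces1g, Ces2a, Ces2b, Ces2c, Ces2e, Ces2g and Ces3a, out of 55536 genes in the deposited expression tables. The genes were taken by name, and the family was chosen by a measured value, the 24 h rhythm of Ces1d, which had passed a test in control organoids. The same tables hold 10 other genes named as carboxylesterases, which serve as neighbours. RNA was sequenced from intestinal organoids, which are epithelial cultures grown from intestinal tissue, of 4 genotypes on a C57BL/6 background. The genotypes were Apc-min Bmal1-null (APCmin/-;BMAL1-/-), Apc-min (APCmin/-;BMAL1+/+), Bmal1-null (APC+/+;BMAL1-/-) and control (APC+/+;BMAL1+/+). Apc-min is a truncating allele of Apc, the tumour suppressor that restrains Wnt signalling, and the labels call the cultures of both Apc-min genotypes adenoma organoids. Bmal1, whose gene symbol is Arntl, is the activator without which the circadian clock does not run. All cultures received 0.1 µM dexamethasone for 1 h, which aligns the clocks of the cells, and were collected every 2 h over 12 time points between 24 and 46 h afterwards. The expression tables hold 22 libraries of each genotype, 88 in all, with 1 library in place of a pair in 8 of the genotype and time groups. The labels give 2 organoid lines per genotype, called biological replicates, and do not say which library came from which line. The p-values below therefore measure the spread between libraries and not between many independent cultures.

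Several features of the series touch every result on the family. Both Apc-min genotypes were grown in EN medium and the other genotypes in ENR medium, and their libraries carry the numbers 1 to 48, against 49 to 96 for Bmal1-null and control. The Apc genotype, the medium and the library series cannot be told apart. Libraries had 28.8 to 48.1 M uniquely mapped reads. Reads left unmapped under the heading "too short" averaged 1.31% in Apc-min Bmal1-null, 1.3% in Apc-min, 6.00% in Bmal1-null and 6.73% in control libraries. This measure thus moved with Apc, and its part in the Apc differences was not tested. Values are TPM, the abundance of a gene's transcripts scaled by gene length and to the same total in each library, which keep no record of depth, so no counting interval is given. Arntl had 2.00 to 14.7 TPM in Apc-min Bmal1-null, 4.09 to 17.3 TPM in Apc-min, 6.31 to 10.9 TPM in Bmal1-null and 11.26 to 20.7 TPM in control libraries, so transcripts of the targeted gene were lower but present, and which part of it was deleted is not stated. The epithelial marker Epcam had 482 to 685, 590 to 694, 1564 to 1706 and 1568 to 1782 TPM in the same order of genotypes. Within a genotype and time, the library of lower number and the library of higher number formed sets that often stood apart, and both are given where they do. The 28 h library of lower number labelled Apc-min and the one labelled Apc-min Bmal1-null each resembled the other genotype. With them, none of 12885 tested genes separated these genotypes without overlap. Without them, 251 genes were higher and 669 lower in Apc-min Bmal1-null with no overlap. They are kept under their labels, called the libraries in doubt, and results that rest on them are given with and without them.

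Carboxylesterases are serine hydrolases of the endoplasmic reticulum that cleave esters, amides and thioesters. They split acylglycerols and cholesteryl esters in lipid handling, and they activate or clear ester drugs. In the intestine the absorptive enterocyte carries most of this activity, mainly through enzymes of the Ces2 group, and human CES2 is known for converting the prodrug irinotecan to its active form. Ces1 enzymes are best known from liver and fat, where Ces1d, also called triacylglycerol hydrolase, mobilises stored triglyceride.

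All 10 genes lie on chromosome 8 in the GENCODE M21 annotation of GRCm38, in a pair of clusters. The Ces1 genes are read from the minus strand, with Ces1d at chr8:93166068-93197838, Ces1e at chr8:93201218-93229619, Ces1f at chr8:93256236-93279747 and Ces1g at chr8:93302369-93337308. The Ces2 genes are read from the plus strand in the order Ces2a (chr8:104734003-104741634), Ces2b (chr8:104831572-104840093), Ces2c (chr8:104847068-104854483), Ces2e (chr8:104926260-104934672) and Ces2g (chr8:104961718-104969537), and Ces3a follows at chr8:105048601-105058413. Ces2f lies between Ces2e and Ces2g at chr8:104947356-104960047. Ces1d overlaps the predicted gene Gm45909 on the same strand. Reads of near-identical copies can be split between genes by the authors' estimation. Of the 101-base stretches of its transcripts, Ces2c shares 13.3% with another gene, mostly the pseudogene Ces2d-ps, Ces2a shares 8% with Gm7208, and Ces3a shares 6.66% with Ces3b. Ces2b shares 0.0587%, and Ces1d, Ces1e, Ces1f, Ces1g, Ces2e and Ces2g share none.

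RefSeq promoter windows (GRCm38.p6) were matched for 6 of the 10 genes, Ces1e, Ces1g, Ces2a, Ces2c, Ces2e and Ces2g. The 250 bases before the start are shown for 4 Ces2 genes because Ces2a, Ces2c and Ces2e were far lower in the Apc-min genotypes while their neighbour Ces2g was far higher. Capitals in Ces2a and Ces2e mark GAACTTTG, a match on the reverse strand to CAAAGTNC, a core of the motif of HNF4, an enterocyte nuclear receptor. Capitals in Ces2c and Ces2g mark the longest run of bases their windows share, GGCCATTGGCTCC.
Ces2a (chr8:104733753-104734002, plus strand): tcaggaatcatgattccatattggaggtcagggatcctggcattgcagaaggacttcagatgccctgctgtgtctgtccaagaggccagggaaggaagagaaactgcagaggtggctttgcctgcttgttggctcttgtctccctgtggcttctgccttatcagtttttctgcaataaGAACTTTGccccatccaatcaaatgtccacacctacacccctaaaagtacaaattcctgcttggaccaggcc
Ces2c (chr8:104846818-104847067, plus strand): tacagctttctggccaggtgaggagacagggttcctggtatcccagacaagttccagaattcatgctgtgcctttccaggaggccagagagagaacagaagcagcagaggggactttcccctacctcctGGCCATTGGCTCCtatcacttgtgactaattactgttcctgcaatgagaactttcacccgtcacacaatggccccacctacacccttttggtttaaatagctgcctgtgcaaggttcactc
Ces2e (chr8:104926010-104926259, plus strand): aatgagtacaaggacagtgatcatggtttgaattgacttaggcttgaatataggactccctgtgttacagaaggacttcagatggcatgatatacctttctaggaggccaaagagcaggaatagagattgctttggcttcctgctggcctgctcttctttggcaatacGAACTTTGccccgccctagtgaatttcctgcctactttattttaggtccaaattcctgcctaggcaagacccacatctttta
Ces2g (chr8:104961468-104961717, plus strand): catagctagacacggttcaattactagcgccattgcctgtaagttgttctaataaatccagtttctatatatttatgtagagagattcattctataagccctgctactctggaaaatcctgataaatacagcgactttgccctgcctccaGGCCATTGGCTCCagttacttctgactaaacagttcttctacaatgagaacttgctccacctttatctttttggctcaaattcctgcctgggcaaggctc
The core CAAAGTNC was searched on both strands and was present in 2 of the 6 windows, Ces2a and Ces2e, and in 3.98% of 32851 RefSeq windows of the same length. The longer form CAAAGTCCA, which contains it, was in none of the 6 and in 0.475% of all windows. The sequence CTTTGAT, bound by TCF factors of the Wnt pathway, was in none of the 6 and in 3.73% of all. The longest runs shared with Ces2g were 13 bases for Ces2c and for Ces2e and 11 bases for Ces2a, and Ces2a and Ces2e shared a run of 17 bases. Clock motifs were searched because of Ces1d, whose own window was not in the table. The E-box CACGTG was in none of the 6 windows and in 7.15% of all. The D-box TTANGTAA, bound by the clock output factors Dbp, Tef and Nfil3, matched Ces1e at 2 places and Ces1g at 1, marked in capitals. The Ces1e match TTACTTAA is on the reverse strand. The motif was present in 2.32% of all windows. Only part of each window is shown, 120 bases for Ces1e and 60 bases for Ces1g.
Ces1e (chr8:93229670-93229789, minus strand): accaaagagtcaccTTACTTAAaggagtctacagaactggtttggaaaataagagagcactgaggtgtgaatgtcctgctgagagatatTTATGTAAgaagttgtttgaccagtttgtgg
Ces1g (chr8:93337400-93337459, minus strand): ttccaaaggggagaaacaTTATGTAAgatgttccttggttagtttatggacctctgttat
The CDX motif TTTATNG matched in Ces1g alone of the 6, at 2 places, and in 10.9% of all windows. The TATA sequence TATAAA matched in Ces1g alone, at 1 place shared with a CDX match, and in 13.6% of all. That Ces1g match reads TTTATA, so it is on the strand opposite to the gene. A match is a string of letters and not a measured binding site.

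In organoids with wild-type Apc, 3 genes made up nearly all of the family's transcripts. Ces2e, an intestinal carboxylesterase, gave a median of 53.4% of the summed TPM of the 10 genes in Bmal1-null and 51.3% in control libraries. Ces2c, which hydrolyses acylglycerols, gave 29.2% in Bmal1-null and 30.1% in control, and Ces2a, a related acylglycerol hydrolase, gave 13.3% in Bmal1-null and 14.7% in control. The family sum had a median of 752 TPM in Bmal1-null and 779 TPM in control libraries. In the Apc-min genotypes the sum was 92.9 TPM in Apc-min Bmal1-null and 80.4 TPM in Apc-min. There Ces2g led, with 73.4% of the sum in Apc-min Bmal1-null and 55.1% in Apc-min, against 0.646% in Bmal1-null and 0.642% in control.

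**Figure D1:**
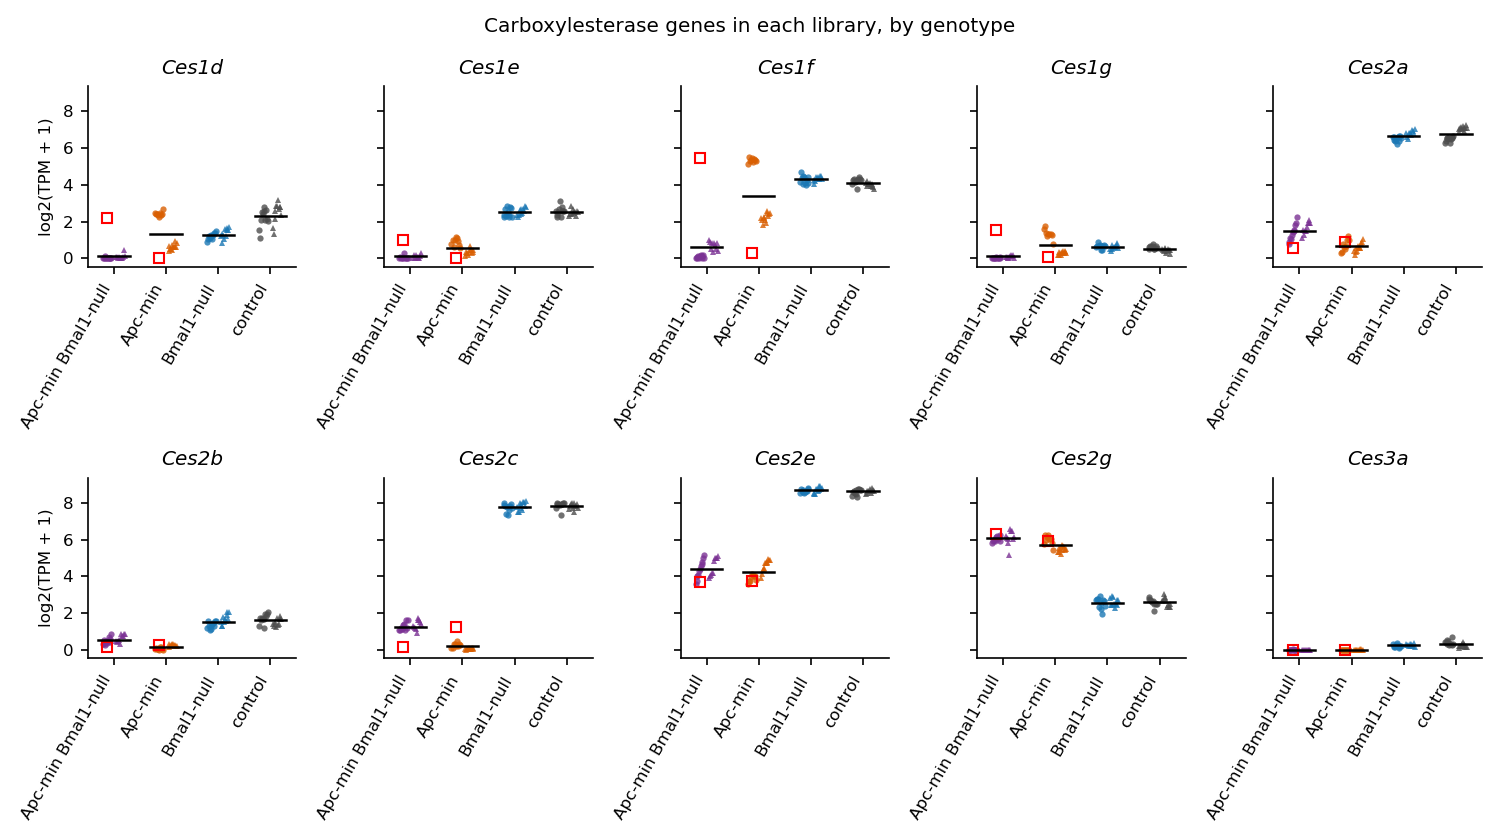
Each panel plots 1 gene as log2(TPM + 1) in every library, with the genotypes along the horizontal axis; circles are libraries of lower number, triangles libraries of higher number, open red squares the 28 h libraries in doubt, and black bars the means. Ces2a, Ces2c and Ces2e are low in both Apc-min genotypes and high in Bmal1-null and control, Ces2g has the opposite order, and Ces1d and Ces1f split into levels within Apc-min.

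In Apc-min organoids Ces2c was nearly silent. It had a lowest, median and highest value of 0, 0.06 and 1.4 TPM in Apc-min, against 162.58, 237 and 256 TPM in control. The highest Apc-min value is that of the library in doubt, and the mean was 1372-fold lower in Apc-min, or 2121-fold lower without that library. On the log2(TPM + 1) scale used for tests, the difference was -7.67 ± 0.07 (SE of the limma coefficient, 22 libraries each, adjusted p = 4.81e-43). Ces2a had 0.15, 0.525 and 1.33 TPM in Apc-min and 76.1, 107 and 154 TPM in control, a mean 186-fold lower in Apc-min, with a difference of -6.16 ± 0.09. Ces2e had 10.84, 16.3 and 29.3 TPM in Apc-min and 319.85, 398 and 440 TPM in control, a mean 20.6-fold lower in Apc-min, with a difference of -4.36 ± 0.10. Of the 3 main intestinal genes, Ces2e thus kept the largest fraction of its control level. Ces2b, of the same group, averaged 0.138 TPM in Apc-min, against 2.1 TPM in control (difference -1.44 ± 0.06). Ces1e, known as egasyn, which holds beta-glucuronidase in the endoplasmic reticulum, averaged 0.51 ± 0.365 TPM in Apc-min, against 4.89 ± 0.922 TPM in control (SD), a difference of -1.99 ± 0.09. For these 5 genes no Apc-min library reached the lowest control library.

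Ces2g moved the other way. It had 35.78, 47.8 and 74.8 TPM in Apc-min and 3.34, 5.2 and 7.33 TPM in control, a mean 10.1-fold higher in Apc-min, with a difference of 3.09 ± 0.09 (adjusted p = 2.24e-27). Every Apc-min library was above every control library. Its neighbour Ces2f, which is no member, was also higher, with a mean of 2.58 ± 0.769 TPM in Apc-min and 0.0759 ± 0.0434 TPM in control (SD) and a difference of 1.71 ± 0.07. The adjacent genes Ces2f and Ces2g were therefore higher in Apc-min, while Ces2a, Ces2b, Ces2c and Ces2e, on their upstream side, were lower. In the Ces1 cluster, Ces1c, the secreted carboxylesterase of mouse plasma and also no member, averaged 0.0345 TPM in Apc-min, against 9.88 TPM in control (difference -3.40 ± 0.04).

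Of the 10 members, 8 reached the filter of a mean of 1 TPM in Apc-min or control, and Ces1g and Ces3a did not. Ces1g had at most 2.41 TPM in any library, and Ces3a at most 0.6 TPM, with 0 to 0.03 TPM in Apc-min and 0.08 to 0.6 TPM in control. Ces1e, Ces2a, Ces2b and Ces2c passed the filter through control alone, where they were higher. Their p-values, and the counts and median over the 8, are therefore a description. The neighbour Ces1c also passed it through control alone and Ces2f through Apc-min alone, so their differences are a description too. The test was passed by 7 of the 8, as it was by 81.6% of the 13663 genes tested (31.1% lower and 50.5% higher), so the count of passes says nothing about the family. Lower libraries with no overlap were found for 5 of the 8, against 12.9% of all genes, and higher ones for 1 of the 8, against 15.3%. The median difference over the 8 members was -1.72, beside 0.167 over all genes. Ces1d and Ces1f differed between library sets and are described below.

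Without Bmal1 the same comparison had the same directions for the Ces2 genes, and the sizes differed for Ces2a, Ces2b, Ces2c and Ces2g, as tested below. Ces2c had 0.10, 1.36 and 2.3 TPM in Apc-min Bmal1-null and 161.64, 224 and 271 TPM in Bmal1-null, with a difference of -6.53 ± 0.08. Ces2a had 0.47, 1.83 and 3.79 TPM in Apc-min Bmal1-null and 74.59, 99 and 130 TPM in Bmal1-null, a difference of -5.18 ± 0.09. The Ces2c mean was 151-fold lower in Apc-min Bmal1-null than in Bmal1-null. Ces2e had 11.07, 19.2 and 35 TPM in Apc-min Bmal1-null and 352.87, 408 and 485 TPM in Bmal1-null, a difference of -4.26 ± 0.08. Ces2g had 34.88, 66.3 and 94.6 TPM in Apc-min Bmal1-null and 2.90, 5.12 and 6.73 TPM in Bmal1-null, and its difference was 3.48 ± 0.09. No library overlapped between the genotypes for these 4 genes. Ces1f fell by 3.71 ± 0.24 and Ces1e by 2.40 ± 0.07, and Ces2b and Ces1d fell by 0.97 ± 0.06 and 1.13 ± 0.11. All 8 members tested passed, against 84.5% of 13404 genes (38.8% lower and 45.7% higher), with a median difference of -3.05 beside 0.074 over all genes. Ces1d, Ces1e and Ces2b reached the filter through Bmal1-null alone, so these counts and the median are a description. Libraries without overlap were lower for 5 of the 8 (15.3% of all genes) and higher for 1 (15.1%).

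**Figure D2:**
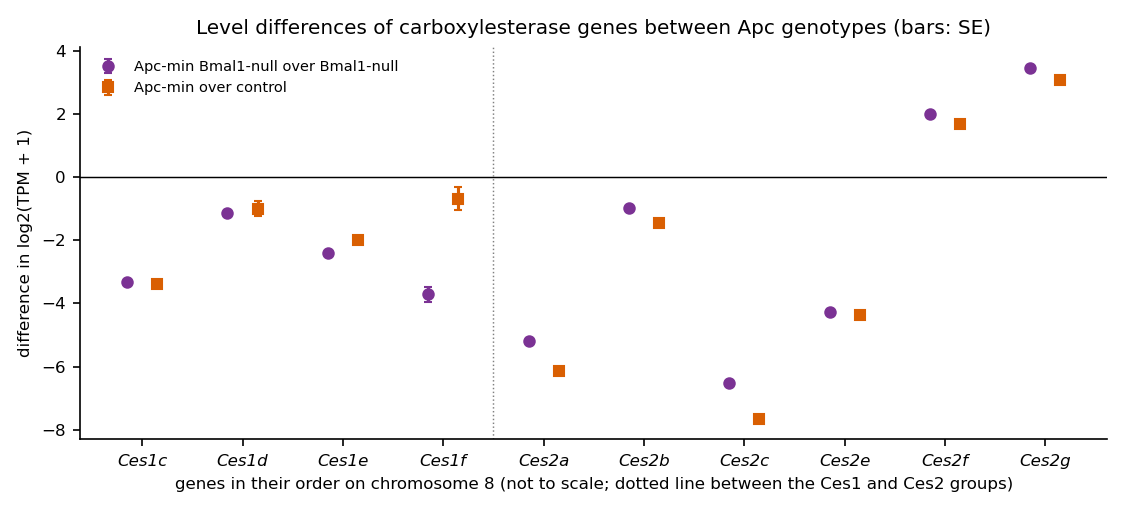
The vertical axis is the difference in log2(TPM + 1) for Apc-min Bmal1-null over Bmal1-null (circles) and for Apc-min over control (squares), with bars for SE, for the tested members and the neighbours Ces1c and Ces2f in their order along chromosome 8. The genes from Ces2a to Ces2e lie below 0, down to -7.67 for Ces2c, and Ces2f and Ces2g lie above it, up to 3.48.

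Genes that work beside the carboxylesterases were also lower in Apc-min than in control. Over all 13663 genes tested, 31.1% fell and 50.5% rose, with a median difference of 0.167. In the lists below, in order, 7, 9, 7 and 5 genes averaged under 1 TPM in Apc-min. These were tested, where at all, through control alone, so the counts and medians are a description. In a list of triglyceride synthesis and chylomicron genes, 21 of 24 tested fell and 1 rose, with a median difference of -2.48, and Apoa1, an apolipoprotein, fell by 11.61. In a list of drug metabolism genes 23 of 26 fell and 3 rose (median -3.34), with Cyp2d26, a cytochrome P450, at -7.72 and the bilirubin transferase Ugt1a1 at -6.89. Among nuclear receptors and factors known to act on carboxylesterase or enterocyte genes 16 of 19 fell and 3 rose (median -2.52). The bile acid receptor Nr1h4 fell by 6.10, the xenobiotic receptor Nr1i2 by 5.38, Hnf4g by 4.79 and the intestinal factor Cdx1 by 5.71. Other ester and lipid hydrolases were divided, with 11 of 21 lower and 10 higher (median -0.34). Aadac, a microsomal esterase, fell by 4.26 and Nceh1, a neutral cholesteryl ester hydrolase, rose by 2.60.

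Markers of mature cell types moved with these differences. All 20 enterocyte markers fell in Apc-min, and their summed level was 86.9 to 578 TPM in Apc-min Bmal1-null, 111 to 1014 TPM in Apc-min, 7214 to 10264 TPM in Bmal1-null and 7463 to 11162 TPM in control. None of the 20 was at 0 in every library of a genotype, but Sis, the sucrase of the brush border, had at most 0.12 TPM in Apc-min Bmal1-null and at most 0.08 TPM in Apc-min. In Apc-min against control, all 8 goblet and all 10 enteroendocrine markers fell, 7 of 8 Paneth markers fell and 1 rose, 5 of 6 tested tuft markers fell and 1 rose, 6 of 10 stem cell markers rose and 4 fell, and all 12 proliferation markers rose. Of 9 general epithelial markers 6 fell and 1 rose. Over all genes tested in this comparison, 31.1% fell and 50.5% rose. In Apc-min, 12 enterocyte, 9 enteroendocrine, 6 tuft, 4 Paneth, 3 goblet and 1 stem cell markers averaged under 1 TPM. They were tested, where at all, through control alone, so the counts of those lists are a description. The summed tuft level had a median of 33.7 TPM in Apc-min and 13.3 TPM in control, against the direction of most tuft markers tested. Hepatocyte markers summed to at most 22.1 TPM in any library, immune markers to at most 43 TPM and fibroblast markers to at most 17.4 TPM. Of those lists 2, 3 and 1 markers reached the filter. Both hepatocyte markers fell, 2 immune markers rose and 1 fell, and the fibroblast marker fell. In Apc-min 7 hepatocyte, 5 immune and 6 fibroblast markers averaged under 1 TPM, so these counts are a description too. In whole organoids, fewer cells of a type and less RNA per cell cannot be told apart, and the part that the makeup of the cultures plays in the carboxylesterase differences was not tested.

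Ces1f, a Ces1 enzyme found on the endoplasmic reticulum and lipid droplets, depended on the library set within Apc-min. Without the library in doubt, it had 34.6, 39.6 and 44.3 TPM (lowest, median and highest) in the 9 Apc-min libraries of lower number and 2.49, 3.7 and 4.89 TPM in the 12 of higher number. Control libraries lay between them, with 12.74 to 20.2 TPM. Over all libraries the difference of Apc-min over control was -0.68 ± 0.37 and did not pass (adjusted p = 0.0944). It passed, at -0.79 to -0.80, when the Apc-min library of lower number at 30, 36, 38 or 42 h was left out. Within the set of lower number Ces1f rose by 1.1 ± 0.08, and within the set of higher number it fell by 1.79 ± 0.09. Ces1d showed the same split, with 3.68 to 5.54 TPM in the 9 Apc-min libraries of lower number and 0.33 to 0.9 TPM in the 12 of higher number, against 1.2 to 8.15 TPM in control. Its pooled difference of -0.99 ± 0.23 passed (adjusted p = 0.000177), while the set of lower number gave 0.21 ± 0.16, which did not, and the set of higher number -1.84 ± 0.14. With the mean of each library set as the unit, 2 per genotype, Ces1d did not pass (adjusted p = 0.178 in limma). Ces1g had 0.72 to 2.41 TPM in the same 9 libraries and 0.13 to 0.31 TPM in the 12, and Ces1e 0.50 to 1.24 TPM and 0.08 to 0.59 TPM. All 4 Ces1 members thus had their higher Apc-min values in libraries of lower number, and the sets overlapped for Ces1e alone. The Ces2 genes showed the split less evenly. Ces2e had 10.84 to 16.3 TPM in the 9 and 14.13 to 29.3 TPM in the 12, the reverse order, and Ces2g had 42.83 to 74.8 TPM and 35.78 to 51.1 TPM.

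**Figure D3:**
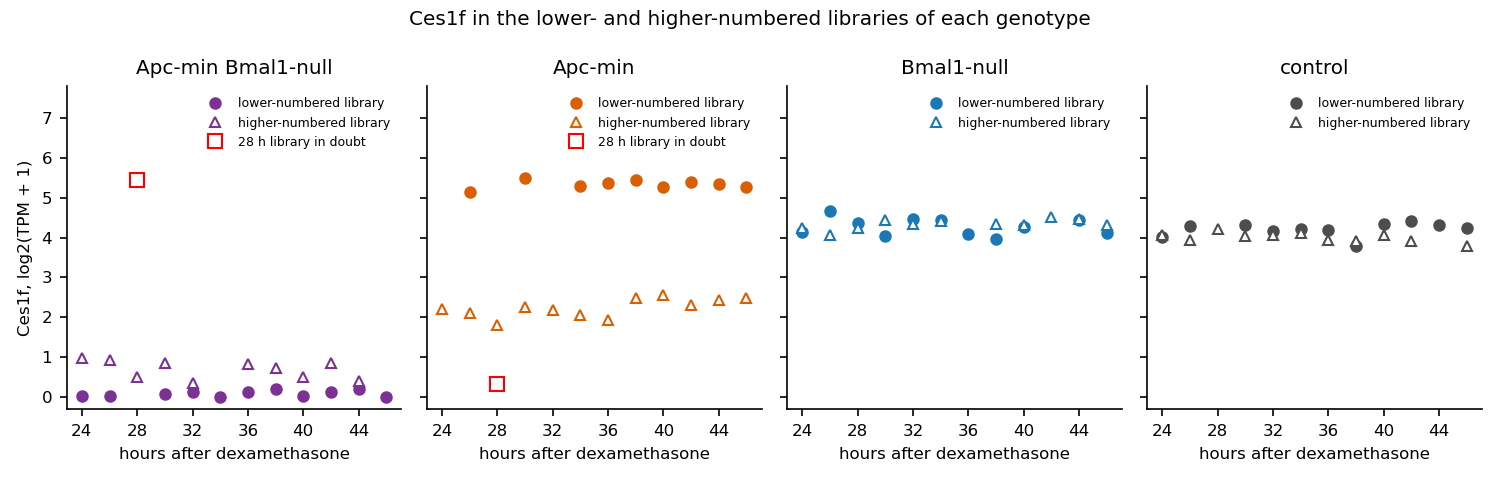
Ces1f as log2(TPM + 1) over hours after dexamethasone in each genotype, with filled circles for libraries of lower number, open triangles for libraries of higher number and red squares for the 28 h libraries in doubt. Apc-min libraries fall into a level near 39.6 TPM and a level near 3.7 TPM at all times sampled in both sets, and the libraries in doubt sit at the other genotype's level.

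In Apc-min organoids without Bmal1, Ces1f and Ces1d were lower and Ces2a and Ces2c higher than in Apc-min organoids with it. Ces1f had 0, 0.22 and 42.4 TPM in Apc-min Bmal1-null and 0.25, 4.58 and 44.3 TPM in Apc-min, a difference of -2.75 ± 0.48 (adjusted p = 1.4e-05). Both extremes that make the ranges overlap are libraries in doubt. Without them, Ces1f reached at most 0.99 TPM in Apc-min Bmal1-null and was at least 2.49 TPM in Apc-min, and the difference was -3.14 ± 0.39. Within the set of lower number it fell by 4.21 ± 0.92, or by 5.25 ± 0.05 without the libraries in doubt, and within the set of higher number by 1.53 ± 0.10. Ces1d was listed at 0 in 12 of 22 Apc-min Bmal1-null libraries and averaged 0.205 TPM there and 2.1 TPM in Apc-min, a difference of -1.15 ± 0.25 (adjusted p = 0.000227). Without the libraries in doubt its mean was 0.0395 TPM in Apc-min Bmal1-null and 2.2 TPM in Apc-min, and the difference was -1.31 ± 0.22. In the set of higher number Ces1d had at most 0.37 TPM in Apc-min Bmal1-null and at most 0.9 TPM in Apc-min, under the filter.

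Ces2c averaged 1.46 ± 0.499 TPM in Apc-min Bmal1-null and 0.166 ± 0.293 TPM in Apc-min (SD), a mean 8.78-fold higher in Apc-min Bmal1-null (14.2-fold without the libraries in doubt), with a difference of 1.09 ± 0.10 (adjusted p = 1.28e-10). Without the libraries in doubt its lowest value in Apc-min Bmal1-null was 0.91 TPM and its highest in Apc-min 0.39 TPM. Ces2a averaged 1.93 ± 0.881 TPM in Apc-min Bmal1-null and 0.603 ± 0.319 TPM in Apc-min (SD), a difference of 0.88 ± 0.08 (adjusted p = 9.22e-11). Both genes were still under 4 TPM, a small part of their Bmal1-null and control levels. Ces2g averaged 67.6 ± 12.7 TPM in Apc-min Bmal1-null and 51.9 ± 11.8 TPM in Apc-min (SD), a difference of 0.41 ± 0.08 that passed over all libraries and in the set of higher number (0.65 ± 0.09) but not in the set of lower number (0.13 ± 0.08). Ces2e averaged 21.8 ± 7.8 TPM in Apc-min Bmal1-null and 19 ± 6.16 TPM in Apc-min (SD), and its difference of 0.21 ± 0.11 did not pass (adjusted p = 0.109). In the set of lower number alone Ces2e rose by 0.56 ± 0.13, and in the set of higher number the difference was 0.0048 ± 0.066. Of the 10 members, 6 reached the filter and 5 passed, against 60.3% of 12885 genes (24.6% higher and 35.7% lower). Ces1d reached the filter through Apc-min alone, and Ces2a and Ces2c through Apc-min Bmal1-null alone, the genotype where each was higher. The p-values of these 3, and the count and median over the 6, are therefore a description. With the means of the library sets as units, none of the 6 passed in limma, and 4 had an unadjusted p under 0.05, Ces1d, Ces1f, Ces2a and Ces2c (adjusted p = 0.237, 0.135, 0.098 and 0.063). The median difference over the 6, with all libraries, was 0.31, beside -0.038 over all genes. Ces1e, Ces1g, Ces2b and Ces3a stayed under the filter, with means of 0.102, 0.13, 0.474 and 0.000909 TPM in Apc-min Bmal1-null and 0.51, 0.765, 0.138 and 0.00227 TPM in Apc-min. With all libraries no member separated the genotypes (0% of all genes, in either direction). Without those in doubt Ces1f was lower with no overlap (5.19% of all genes) and Ces2c higher (1.95%).

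Over all 12885 genes tested in Apc-min Bmal1-null over Apc-min, 24.6% rose and 35.7% fell, with a median difference of -0.038. The list counts that follow include the libraries in doubt. In the lists below, in order, 6, 7, 6, 7 and 13 genes averaged under 1 TPM in Apc-min Bmal1-null. In Apc-min it was 7, 9, 7, 5 and 12 genes. A gene under 1 TPM in 1 of these genotypes was tested, where at all, through the other alone, so the counts and medians are a description. Of the receptors and factors, 10 of 14 tested rose and 1 fell (median 0.61), among them Gata4 by 1.42, Hnf4g by 1.24 and Cdx1 by 1.15. In the drug metabolism list 13 of 21 rose and 5 fell (median 0.50), with the glutathione transferase Gsta1 at 2.85 and Cyp2c65 at 1.87. Of the triglyceride and chylomicron genes 8 of 19 rose and 5 fell (median 0.16), and of the other hydrolases 3 of 17 rose and 7 fell (median -0.05), with the lysosomal lipase Lipa at 1.48 and Pnpla3 at -2.06. Enterocyte markers were divided, with 4 of 9 tested higher and 4 lower.

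The Bmal1 difference depended on the Apc genotype for 6 of 8 members tested, as it did for 47.7% of 13846 genes (18.1% in the positive and 29.6% in the negative direction). On the log2(TPM + 1) scale the Bmal1-null difference was more positive in Apc-min than in Apc wild type by 1.13 ± 0.11 for Ces2c, 0.98 ± 0.12 for Ces2a, 0.47 ± 0.08 for Ces2b and 0.40 ± 0.12 for Ces2g. It was more negative by 2.98 ± 0.46 for Ces1f and 0.41 ± 0.11 for Ces1e. For Ces2e the difference of differences was 0.12 ± 0.13 and for Ces1d -0.13 ± 0.26, and neither passed (adjusted p = 0.458 and 0.696). With the means of the library sets as units, Ces2c alone passed (adjusted p = 0.0255). With a pseudocount of 0.1 in place of 1, the Ces1d value was -1.72 and passed.

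In organoids with wild-type Apc, Ces1d was lower without Bmal1, Ces1f was slightly higher, and the other members tested did not pass. Ces1d had 0.78, 1.44 and 2.33 TPM in Bmal1-null and 1.2, 4.55 and 8.15 TPM in control. Its mean was 1.48 ± 0.398 TPM in Bmal1-null and 4.34 ± 1.78 TPM in control (SD, 22 libraries each), 2.93-fold lower in Bmal1-null, with a difference of -1.0 ± 0.09 (adjusted p = 6.39e-10). The Bmal1-null mean was the lower one at 12 of 12 time points, and the difference was -0.92 ± 0.13 in the set of lower number and -1.06 ± 0.13 in the set of higher number. The ranges overlapped, with the 4 control libraries at 24 and 26 h below the highest Bmal1-null library. Ces1f rose, with a mean of 18.9 ± 2.46 TPM in Bmal1-null and 16.4 ± 2.14 TPM in control (SD), a difference of 0.19 ± 0.05 (adjusted p = 0.0363). It passed in the set of higher number (0.31 ± 0.07) and not in the set of lower number (0.07 ± 0.07). The Ces1f call also ended, at differences of 0.16 to 0.18, when any 1 of 16 libraries was left out. These were the Bmal1-null libraries of lower number at 26, 32 and 34 h and of higher number at 24, 30, 34, 38, 42 and 46 h, and the control libraries of lower number at 38 h and of higher number at 26, 30, 32, 34, 40 and 46 h. Of the 10 members, 8 reached the filter and 2 passed, against 3.56% of 12654 genes (1.47% lower and 2.09% higher). The family was chosen by the values of Ces1d in these control libraries. Its p-values and its place in the counts are therefore a description, here and in the other fits that use control. With the means of the library sets as units, none of the 8 passed in limma, and Ces1d alone had an unadjusted p under 0.05 (adjusted p = 0.144, difference -1.04 ± 0.13). No member separated the genotypes without overlap, as 0.0474% of genes did when lower and 0.103% when higher in Bmal1-null.

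The other 6 tested members did not pass. Ces2e averaged 409 TPM in Bmal1-null and 392 TPM in control (difference 0.06 ± 0.03), Ces2c 221 and 228 TPM (-0.05 ± 0.06), Ces2g 5.05 and 5.12 TPM (-0.03 ± 0.06), and Ces1e 4.79 and 4.89 TPM (-0.03 ± 0.06). Ces2a averaged 100 ± 14.9 TPM in Bmal1-null and 112 ± 25.1 TPM in control (SD), a difference of -0.13 ± 0.09. Control Ces2a was itself split, with 76.1 to 98 TPM in the 11 libraries of lower number and 116.83 to 154 TPM in the 11 of higher number. The Ces2a difference was 0.03 ± 0.06 in the set of lower number and fell by 0.30 ± 0.06, passing, in the set of higher number. Ces2b averaged 1.91 TPM in Bmal1-null and 2.1 TPM in control (-0.09 ± 0.07), and fell by 0.33 ± 0.08 in the set of lower number, with 0.14 ± 0.07 in the other. Ces1g and Ces3a stayed under the filter, at 0.567 and 0.186 TPM in Bmal1-null and 0.443 and 0.25 TPM in control.

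The lists around the family are read against the 3.56% of all genes that passed between Bmal1-null and control. Of the drug metabolism genes 5 of 26 rose and 5 fell, among them Cyp3a11, a major intestinal drug oxidase, by 1.23 and the exporter Abcg2 by 0.67, with Abcc2 at -0.50. Of the other hydrolases 1 of 20 changed, Aadac, which rose by 0.59. Of the triglyceride and chylomicron genes 2 of 24 fell, Acsl5 by 0.26 and Apoa1 by 0.17, and of the receptors and factors 1 of 19 rose, Nr1h3 by 0.19. Clock genes changed in 10 of 16 tested, with Nr1d1 falling by 2.38 and Nr1d2 by 1.92, both repressors activated by Bmal1. Enterocyte markers rose in 3 and fell in 3 of 20.

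Ces1d was taken with its 24 h rhythm in control organoids known, and its course is given as a description. In control libraries, those of lower number before those of higher number, Ces1d had 1.90 and 2.10 TPM at 24 h, 1.2 and 1.54 TPM at 26 h, 3.41 TPM in the single 28 h library, and 3.23 and 5.04 TPM at 30 h. It then had 4.84 and 6.10 TPM at 32 h, 4.26 and 6.33 TPM at 34 h and 5.99 and 8.15 TPM at 36 h. Both sets were thus lowest at 26 h and highest at 36 h. Afterwards it had 4.98 and 5.52 TPM at 38 h, 3.32 and 5.98 TPM at 40 h, 5.14 and 5.86 TPM at 42 h, 3.48 TPM in the single 44 h library, and 3.08 and 4.07 TPM at 46 h. A fitted 24 h cosine had an amplitude of 0.60 ± 0.09 on the log2(TPM + 1) scale, a peak-to-trough swing of 2.29-fold and a peak at 36.8 h. In Bmal1-null libraries Ces1d had 0.78 to 1.49 TPM at 24 to 28 h and 1.56 to 2.33 TPM at 42 to 46 h, and its cosine amplitude was 0.17 ± 0.06. Over a sampled span of less than a full day, a cosine cannot be told apart from another change that happens once.

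**Figure D4:**
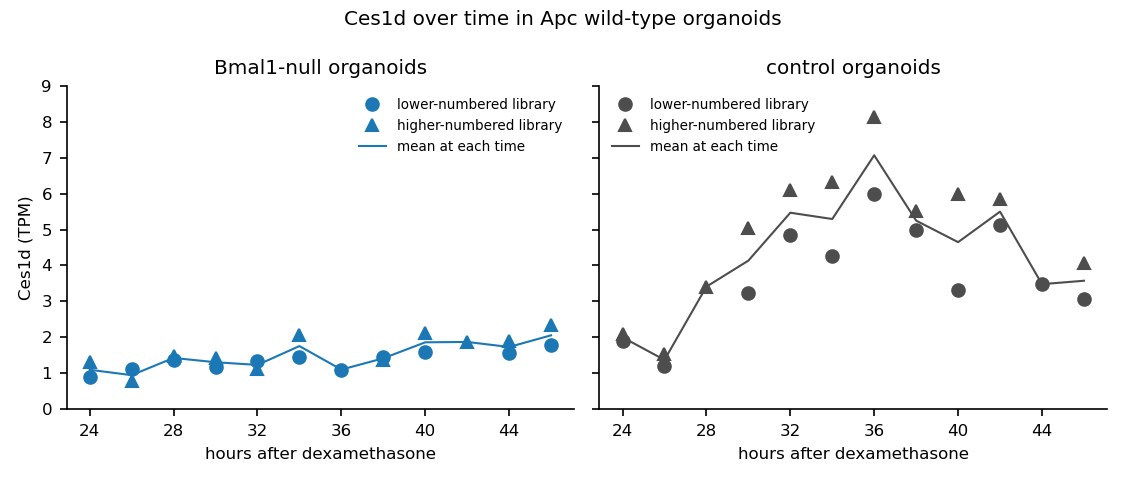
Ces1d in TPM over hours after dexamethasone in Bmal1-null and control organoids, with circles for libraries of lower number, triangles for libraries of higher number and lines through the means. Control values climb to 5.99 and 8.15 TPM at 36 h and decline afterwards, while Bmal1-null values stay between 0.78 and 2.33 TPM.

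No other member passed the rhythm test in control, where 8 were tested and 0.0557% of 12570 genes passed. The nearest was Ces2g, with an amplitude of 0.23 ± 0.05, a swing of 1.38-fold and a peak at 28.3 h (adjusted p = 0.101 in limma, and 0.0275 with the library set as a term, a fit in which 2.3% of all genes passed). It was the 1 member beside Ces1d with an unadjusted p under 0.05, and it passed when the control library of higher number at 46 h was left out, at an amplitude of 0.23. Ces2g had 5.34 to 7.33 TPM at 24 to 28 h and 4.05 to 4.9 TPM at 42 to 46 h in control. The 3 main intestinal genes had amplitudes of 0.03 ± 0.04 for Ces2e, 0.05 ± 0.05 for Ces2c and 0.03 ± 0.10 for Ces2a. In Bmal1-null organoids none of the 8 tested members passed, as none of 12550 genes did (0%); at an unadjusted p under 0.05, Ces1d alone of the members was counted.

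Over the 22 control libraries, the 5 genes whose values followed Ces1d most closely by Spearman's rho were 2500002B13Rik (0.78), Gm10680 (0.77), Palb2 (0.75), Cyp2b10 (0.74) and Cyp2c66 (0.74). Cyp2b10 and Cyp2c66 are cytochrome P450 genes. Among the clock genes, which were looked up afterwards, Nr1d1 had a rho of -0.77, rank 12569 of 12570. Within the family the rho with Ces1d was 0.45 for Ces2a, 0.27 for Ces1e, 0.25 for Ces2e, -0.29 for Ces1f and -0.34 for Ces2g. Ces2b and Ces2c had a rho of 0.67 with each other and Ces2c and Ces2e of 0.62. These points share libraries and times, and the values are a description.

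Across time, Ces2e and Ces2a were higher late than early in Apc-min Bmal1-null. The mean of Ces2e climbed at each step, with 12.7 TPM at 24 h, 16.1 TPM at 30 h, 23.4 TPM at 36 h and 28.9 TPM at 42 h. The single library at 46 h, of lower number, had 35 TPM. The libraries at 42 to 46 h had 26.8 to 35 TPM and those at 24 to 28 h 11.1 to 15.9 TPM, with no overlap. Ces2a had 2.57 to 3.79 TPM at 42 to 46 h and 0.47 to 1.87 TPM at 24 to 28 h in the same genotype. Both passed the 24 h test, Ces2e with an amplitude of 0.56 ± 0.08 and a peak at 40.7 h (adjusted p = 0.00305) and Ces2a with 0.43 ± 0.09 and 41.1 h (adjusted p = 0.0299). They were 2 of 5 members tested, against 2.59% of 12206 genes. Without the library in doubt both still passed, as 2 of 4 members, and the share of all genes was 11.9%. With a linear time term added neither passed, and the amplitude was 0.12 for Ces2e and 0.07 for Ces2a. Ces2a also no longer passed when any 1 of 8 libraries was left out, those of lower number at 26, 32, 42 and 44 h and of higher number at 38, 40, 42 and 44 h, with amplitudes of 0.41 to 0.44. Spearman's rho between Ces2a and Ces2e over these 22 libraries was 0.92, the shared climb included.

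In Apc-min organoids none of 4 tested members passed the 24 h test, against 12% of 12625 genes, or 3.17% without the library in doubt, where none of the 4 passed either; at an unadjusted p under 0.05 none was counted either. Ces2e there had 12.7 to 29.3 TPM at 42 to 46 h and 10.8 to 19.6 TPM at 24 to 28 h, with the sets at different levels. With the library set as a term it passed, with an amplitude of 0.28 ± 0.05 (adjusted p = 0.00428), as did 33.1% of all genes in that fit. Ces2a, under the filter in Apc-min, had 0.8 to 1.33 TPM at 42 to 46 h and 0.15 to 0.87 TPM at 24 to 28 h there, or at most 0.32 TPM without the library in doubt. Its late and early means were 1.01 and 0.362 TPM in Apc-min, beside 3.05 and 1.08 TPM in Apc-min Bmal1-null. In Bmal1-null Ces2e averaged 447 TPM at 42 to 46 h and 379 TPM at 24 to 28 h, and in control 412 TPM and 367 TPM at the same times. In limma's test of a difference in rhythm, none of 6 members passed in Apc-min Bmal1-null over Apc-min (0% of genes), where Ces2c alone had an unadjusted p under 0.05. None of the 7 members beside Ces1d passed in Bmal1-null over control (0.0395% of genes), or had an unadjusted p under 0.05.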

How the data were processed

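The expression of 88 organoid libraries was analysed. The labels name 96, and 8 are marked as not used in the authors' alignment summary and were left out. The TPM tables are the authors' gene estimates, 1 table per genotype. The submitters' processing notes name RSEM 1.3.0, STAR 2.5 and the build GRCm38. The authors also deposited TPM tables that were filtered and quantile-normalized, used here as an alternative. Per the file headers, the alignment summary gives counts of uniquely mapped reads and the percent of reads left unmapped as "too short".

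From these, log2(TPM + 1) was computed and fitted with limma 3.58.1 in R 4.3.3 (empirical Bayes with a trend). Tested genes averaged at least 1 TPM in a compared genotype. Time was a factor in the fits of level, and rhythm was an F test of a 24 h cosine and sine. The Apc by Bmal1 interaction used every library. A gene passed at a two-sided Benjamini-Hochberg adjusted p under 0.05 across all tested genes, and "rose" and "fell" mean that it passed. The fits were tested on simulated data.

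The members and lists were chosen with earlier results of these data known. Of each list up to 4 genes that passed are named by size of difference, and the 5 genes most like Ces1d are named by Spearman's rho. Alternatives changed the pseudocount, filter, scaling, library sets, time term, table and genotypes in the fit, or left out libraries. The plan assumed 24 libraries per genotype, and the tables hold 22.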

Additional observations from a re-analysis of the deposited data

Results flagged for a closer look

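For 6 members the Bmal1 difference was not the same in Apc-min and in Apc wild-type organoids, by limma's interaction test over all 88 libraries, on the log2(TPM + 1) scale. The same test was passed by 47.7% of 13846 genes, so the count says nothing about the family. With the means of the library sets as units, Ces2c alone of the members passed. Ces2c had a difference of 1.09 in Apc-min Bmal1-null over Apc-min and -0.05 in Bmal1-null over control, an interaction of 1.13 (adjusted p = 6.16e-14). Ces2a had 0.88 and -0.13 in the same comparisons, an interaction of 0.98 (adjusted p = 4.8e-10). Ces2g had 0.41 and -0.03, an interaction of 0.40 (adjusted p = 0.0044). Ces1f had -2.75 and 0.19, an interaction of -2.98 (adjusted p = 1.03e-07). Ces2b and Ces1e were under the filter in both Apc-min genotypes and had interactions of 0.47 (adjusted p = 3.24e-06) and -0.41 (adjusted p = 0.00143). The medium and the library series differ between the Apc genotypes in the same way as Apc does, and their part in these differences cannot be told apart from it.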

How the results depend on the processing

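Fits within a library set were added after seeing the data. Counts below are members that passed, with Ces1d left out of the control rhythm counts and of the rhythm difference between Bmal1-null and control. In Bmal1-null over control the count of 2 became 1 with no filter, with a filter of 5 TPM and with all genotypes in the fit, 0 with library set means as units, and 1 to 2 with single libraries left out; within a set Ces2a turned to 0.027 and Ces1e to 0.0056 and Ces2b to 0.14. In Apc-min Bmal1-null over Apc-min the count of 5 became 8 with no filter, 2 at 5 TPM and 0 with set means. In Apc-min over control the count of 7 became 4 at 5 TPM, and in the set of lower number Ces1d turned to 0.21 and Ces1f to 1.1. In Apc-min Bmal1-null over Bmal1-null the count of 8 became 5 at 5 TPM. For the interaction the count of 6 became 1, Ces2c, with set means. The rhythm count became 1 in place of 0 with the set as a term in control and in Apc-min, and 0 to 1 in control with single libraries left out. In Apc-min Bmal1-null the rhythm count of 2 became 1 with no filter, at 5 TPM, with the authors' quantile-normalized values and with median-of-ratios scaling, 0 once a linear time term was added, and 1 to 2 with single libraries left out. A filter of 5 TPM leaves fewer members to test, and set means leave 2 units per genotype. The cause of the other changes was not tested. Of 30 calls of single members, 15 held under every setting and every library left out, and 1 changed sign. No paired analysis was possible because the labels give no replicate numbers that pair libraries across genotypes. TPM tables keep no depth, so precision at low values, such as those of Ces1g and Ces3a, is unknown.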
